A study of Mus musculus with 14 samples.

Results

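The 44 genes described here encode proteins of mitosis and chromosome segregation. They were taken by gene symbol from a list of genes with that function, chosen with earlier results of these data known. All 44 were found, each once, among the 56941 gene IDs of the deposited tables. In every comparison all 44 passed the filter on low counts.

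In mitosis, the kinase Cdk1 with its cyclins starts chromosome condensation and spindle assembly, kinetochores attach the chromosomes to microtubules, and the spindle checkpoint delays their separation until all are attached. Most of these genes are transcribed late in the cell cycle, when the MuvB complex with B-Myb and FoxM1 acts at their promoters, often at a short element called CHR. In resting cells MuvB joins the repressive DREAM complex at the same promoters, and p53 lowers many of these genes through p21 and DREAM. In the embryonic cortex the dividing cells include apical progenitors at the ventricle and intermediate progenitors, and neurons have left the cell cycle.

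The mRNA of embryonic mouse forebrain was read by stranded sequencing in double conditional knockout embryos (dcKO), which combine floxed Sbno1 and floxed Trp53 with the Emx1-Cre driver, and in embryos labelled ff. The labels do not spell out ff, which is read here as the floxed alleles without the driver. There were 3 dcKO and 3 ff libraries of telencephalon at E12.5 (days of gestation), and 4 dcKO and 4 ff libraries of cerebral cortex at E18.5. Sbno1 is related to strawberry notch of Drosophila, and Trp53 encodes p53. Emx1-Cre recombines in progenitors of the dorsal telencephalon and their descendants, so ventral, vascular and immune cells in the same tissue keep the floxed alleles. On that reading all 4 groups carry the floxed alleles, and no group has the driver alone or a single deletion, so the driver and either deletion cannot be told apart. Nothing in the labels says that libraries came from separate embryos, so p-values measure the spread between these libraries only.

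Total expected counts, in M (1e+06 counts), were 42.0 to 67.4 M in 5 of the 6 E12.5 libraries and 48.6 to 81.96 M in 7 of the 8 E18.5 libraries. E12.5 ff replicate 9 (4.92 M) and E18.5 dcKO replicate 2 (5.98 M) were shallower. By chromosome Y genes and Xist all 7 dcKO libraries were male, and E12.5 ff replicate 7 and E18.5 ff replicates 8 and 18 were female. Sbno1 was lower in all E12.5 dcKO libraries (70.2 ± 5.77 CPM against 106 ± 9.29 CPM in ff, SD, n = 3 each), a difference just outside the threshold (edgeR adjusted p = 0.0505). At E18.5 it averaged 72.4 ± 4.24 CPM in libraries labelled dcKO and 73.6 ± 1.31 CPM in ff libraries (SD, n = 4 each; edgeR adjusted p = 0.682). In TPM, Sbno1 was at 18.78 to 26.19 in E18.5 libraries labelled dcKO and at 14.72 to 18.43 in ff libraries. Every library labelled dcKO was then above every ff library, although the CPM means were close. Neither measure showed a clear fall of Sbno1 in libraries labelled dcKO at E18.5, and TPM also depends on the transcript length used. Which exons the deletion removes is not given in the sources used here, so a count over the whole gene is a limited check of the labels. Trp53 averaged 106 ± 2.32 CPM in dcKO and 123 ± 15.4 CPM in ff at E12.5 (SD, n = 3 each; log2 fold change -0.23, edgeR adjusted p = 0.218). At E18.5 it fell, to 65.0 ± 6.25 CPM in libraries labelled dcKO against 75.0 ± 2.53 CPM in ff libraries (SD, n = 4 each; log2 fold change -0.20, edgeR adjusted p = 0.0319). Emx1, the driver locus, was lower in dcKO at both stages (log2 fold changes -0.96 and -0.81, SE 0.08 and 0.07, edgeR adjusted p = 0.00833 and 8.31e-06). In 11 of 14 libraries the library name given in the sample descriptions stands on a sample of another group, and groups here follow the table columns, whose number, genotype and stage match 1 sample title in all 14. E18.5 groups are therefore named as labelled. The dorsal telencephalon markers Emx1 and Tbr1 averaged 1 TPM or more in every group.

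Promoter stretches of 8 members are shown because many members hold short elements there that were not used to choose the member list. The 8 printed were themselves picked by whether they hold a CHR element, so they do not show how common it is. They are RefSeq sequences on build GRCm38.p6, each running from 120 bases before to 30 bases after the annotated start, 5′ to 3′ on the gene's strand. Capitals mark every TTTGAA or TTCAAA (the CHR element read on either strand), TTTAAA (a CHR variant), and CCAAT or ATTGG (the CCAAT box, bound by NF-Y). The first 6 hold a CHR element, Ccnb1 holds the variant alone, and Bub1 holds CCAAT boxes without either. The positions are Mki67 chr7:135716350-135716499 on the minus strand, Top2a chr11:99024160-99024309 on the minus strand, Cdk1 chr10:69352883-69353032 on the minus strand, Cenpf chr1:189688057-189688206 on the minus strand, Kif11 chr19:37376262-37376411 on the plus strand, Aspm chr1:139454653-139454802 on the plus strand, Ccnb1 chr13:100786457-100786606 on the minus strand, and Bub1 chr2:127831830-127831979 on the minus strand.
Mki67: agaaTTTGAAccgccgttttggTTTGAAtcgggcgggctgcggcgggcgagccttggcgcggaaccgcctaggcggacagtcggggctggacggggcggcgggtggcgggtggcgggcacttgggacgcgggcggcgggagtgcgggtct
Top2a: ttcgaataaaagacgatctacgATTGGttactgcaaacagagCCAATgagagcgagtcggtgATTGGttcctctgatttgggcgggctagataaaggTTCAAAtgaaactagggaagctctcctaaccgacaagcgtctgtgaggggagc
Cdk1: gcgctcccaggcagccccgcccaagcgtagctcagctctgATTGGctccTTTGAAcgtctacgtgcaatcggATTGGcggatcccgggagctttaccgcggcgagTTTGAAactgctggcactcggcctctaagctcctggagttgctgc
Cenpf: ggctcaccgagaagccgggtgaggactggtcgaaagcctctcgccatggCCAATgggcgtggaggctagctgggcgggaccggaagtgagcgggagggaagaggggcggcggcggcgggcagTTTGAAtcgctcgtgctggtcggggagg
Kif11: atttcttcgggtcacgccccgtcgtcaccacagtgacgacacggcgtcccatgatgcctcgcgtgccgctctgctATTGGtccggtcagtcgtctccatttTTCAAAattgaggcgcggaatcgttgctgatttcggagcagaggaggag
Aspm: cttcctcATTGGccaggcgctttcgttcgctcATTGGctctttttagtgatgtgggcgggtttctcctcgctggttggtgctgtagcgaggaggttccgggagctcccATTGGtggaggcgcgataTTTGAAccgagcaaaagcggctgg
Ccnb1: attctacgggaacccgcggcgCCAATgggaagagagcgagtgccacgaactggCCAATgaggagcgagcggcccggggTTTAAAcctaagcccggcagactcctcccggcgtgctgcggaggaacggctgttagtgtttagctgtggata
Bub1: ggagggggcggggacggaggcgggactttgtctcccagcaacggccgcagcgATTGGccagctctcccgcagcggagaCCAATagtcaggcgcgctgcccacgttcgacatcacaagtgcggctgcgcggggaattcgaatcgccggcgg

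RefSeq windows of 300 bases, from 250 before to 50 after the start, were found for 37 of the 44 members (39 windows). A CHR element, TTTGAA or TTCAAA, was in 29 of these 37 members and in 79.5% of their windows, beside 17.9% of all 32851 windows of that length. The CCAAT box was also in 29 members and 79.5% of their windows, beside 37.4% of all windows. Both together were in 25 members, beside 6.95% of all windows. TTTAAA was in 10 members (25.6% of their windows, 13.2% of all windows). An E2F site, spelled TTTCCCGC, TTTGGCGC, TTTCGCGC or TTTGCCGC on either strand, was in 3 members (7.69% of their windows, 2.26% of all windows). The 8 matched members without TTTGAA were Ccnb1, Bub1, Cenpe, Nusap1, Birc5, Nuf2, Ncaph and Sgo1. A match describes these letters in this window and is not a measured binding site.

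The summed level of the 44 genes was lower in dcKO than in ff at E12.5 and higher in libraries labelled dcKO than in ff at E18.5, while single members differed in how far they followed it. Their TPM, a level corrected for transcript length, summed to 3410, 3412 and 3358 in E12.5 dcKO libraries, against 3784, 4347 and 4013 in E12.5 ff libraries. At E18.5 the sums were 1214, 1165, 1135 and 1173 TPM in libraries labelled dcKO, against 694, 867, 789 and 899 TPM in ff libraries. Here and below, the values of a group follow the library numbers 2, 6 and 10 (E12.5 dcKO), 4, 7 and 9 (E12.5 ff), 2, 3, 12 and 13 (E18.5 dcKO), and 7, 8, 17 and 18 (E18.5 ff). The groups did not overlap at either stage, and the dcKO libraries lay closer together (SD 30.6 and 32.6 TPM) than the ff libraries (SD 283 and 91.3 TPM). In bulk tissue, fewer cells in division and less of this RNA per dividing cell cannot be told apart.

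**Figure D1:**
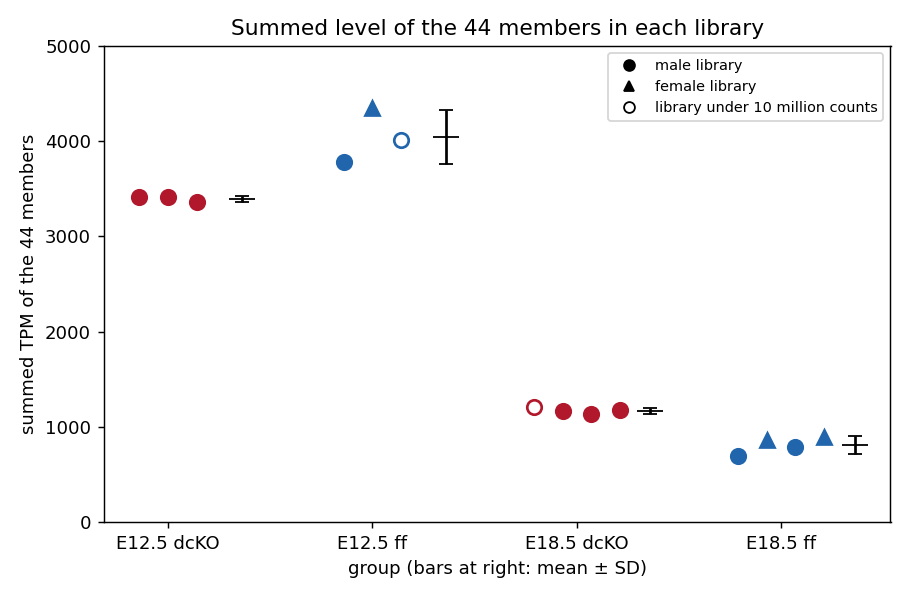
Summed TPM of the 44 members (y axis, linear from 0) in each library of the 4 groups (x axis), with group mean ± SD in black; triangles are female libraries and open symbols the 2 shallower libraries. The 3 E12.5 dcKO libraries sit at 3358 to 3412 TPM, below the ff libraries at 3784 to 4347 TPM, and the 4 E18.5 libraries labelled dcKO at 1135 to 1214 TPM, above the ff libraries at 694 to 899 TPM.

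Sex moved with the level of these genes within the ff group. Relative to the ff mean of its stage, the median member of a library was at log2 0.13 in the female E12.5 ff library and at -0.15 and 0.01 in the male ones. At E18.5 it was 0.10 and 0.13 in the female ff libraries and -0.22 and -0.01 in the male ff libraries. Because all dcKO libraries were male, the members were also compared among male libraries alone. There the median log2 fold change was -0.19 at E12.5 (2 ff libraries) and 0.58 at E18.5 (2 ff libraries), against -0.27 and 0.47 with all libraries. No member was called at E12.5 among male libraries or with sex as a covariate. Replicate 7 of ff was the only female E12.5 library, so there sex and that library cannot be told apart. The part of sex in the differences between ff libraries was not tested.

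At E12.5, 43 of 44 members had a negative log2 fold change, with a median of -0.27 beside 0.01 over all 17853 genes tested. Spc24 was the exception, at 0.09. In edgeR's quasi-likelihood test 1 member, Mki67, was called lower and none higher at an adjusted p under 0.05, beside 0.151% of all genes called lower. At an unadjusted p under 0.05, 27 members were lower, beside 11.1% of all genes. In 27 members all dcKO libraries lay below all ff libraries, beside 13.2% of all genes. Overlap of a single gene's groups is judged in CPM here and below. In TPM at E12.5, the groups of Kif23, Cenpf and Ncapd2 overlapped instead. Those of Cdk1, Ccna2, Ccnb1, Ccnb2, Kif2c, Cdc20 and Ndc80 were apart in TPM, with dcKO lower. The count depended on the tool: the DESeq2 Wald test called 21 members lower (7.87% of the genes it gave an adjusted p), and the authors' deposited table also lists 21 members lower (7.56% of its genes with an adjusted p). Neither called a member higher. Leaving out 1 library at a time gave 0 to 5 calls and medians between -0.34 and -0.19.

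At E18.5, 38 of 44 members rose in libraries labelled dcKO and none fell, beside 15.6% of all 17974 genes called higher. All 44 log2 fold changes were positive, from 0.12 for Ccnb2 to 1.08 for Kif20a, with a median of 0.47 beside 0.03 over all genes. In 37 members all libraries labelled dcKO lay above all ff libraries, beside 16.1% of all genes. In TPM the groups of Cenpf overlapped and those of Cdc20 were apart, the reverse of CPM. The authors' deposited table lists 38 members higher and none lower, beside 14.4% of its genes. Of the 38 calls, 34 were made in each of the 8 fits that left out 1 library, and Birc5, Aurkb, Nuf2 and Nusap1 were not. Among male libraries alone 37 were called. Leaving out the shallow library, which is 1 of those 8 fits, also gave 37.

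The genotype difference at E18.5 minus that at E12.5 was positive for all 44 members, with a median of 0.72 beside -0.03 over all 19327 genes tested. As an interaction term in 1 fit of all 14 libraries it was called for 38 members, all positive, beside 7.12% of all genes called positive. Mki67 (1.27), Kif20a (1.14), Kif20b (1.05), Aspm (1.04) and Cenpe (1.03) had interactions above 1 on the log2 scale. After the correction for length and GC content described below, these were 1.02, 1.11, 0.88, 0.79 and 0.81 in the same order. The median interaction was then 0.655, and 37 members were called, all positive. Cdk1, Cenpa, Spc25, Ccnb2, Birc5 and Ncaph were not called. Of the 38 calls, 30 were made in each of the 14 fits that left out 1 library, and Cdc20, Aurkb, Racgap1, Nuf2, Aurka, Ccna2, Cdca8 and Ccnb1 were not. Stage and dissected tissue differ together, so the 2 cannot be told apart in the interaction.

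**Figure D2:**
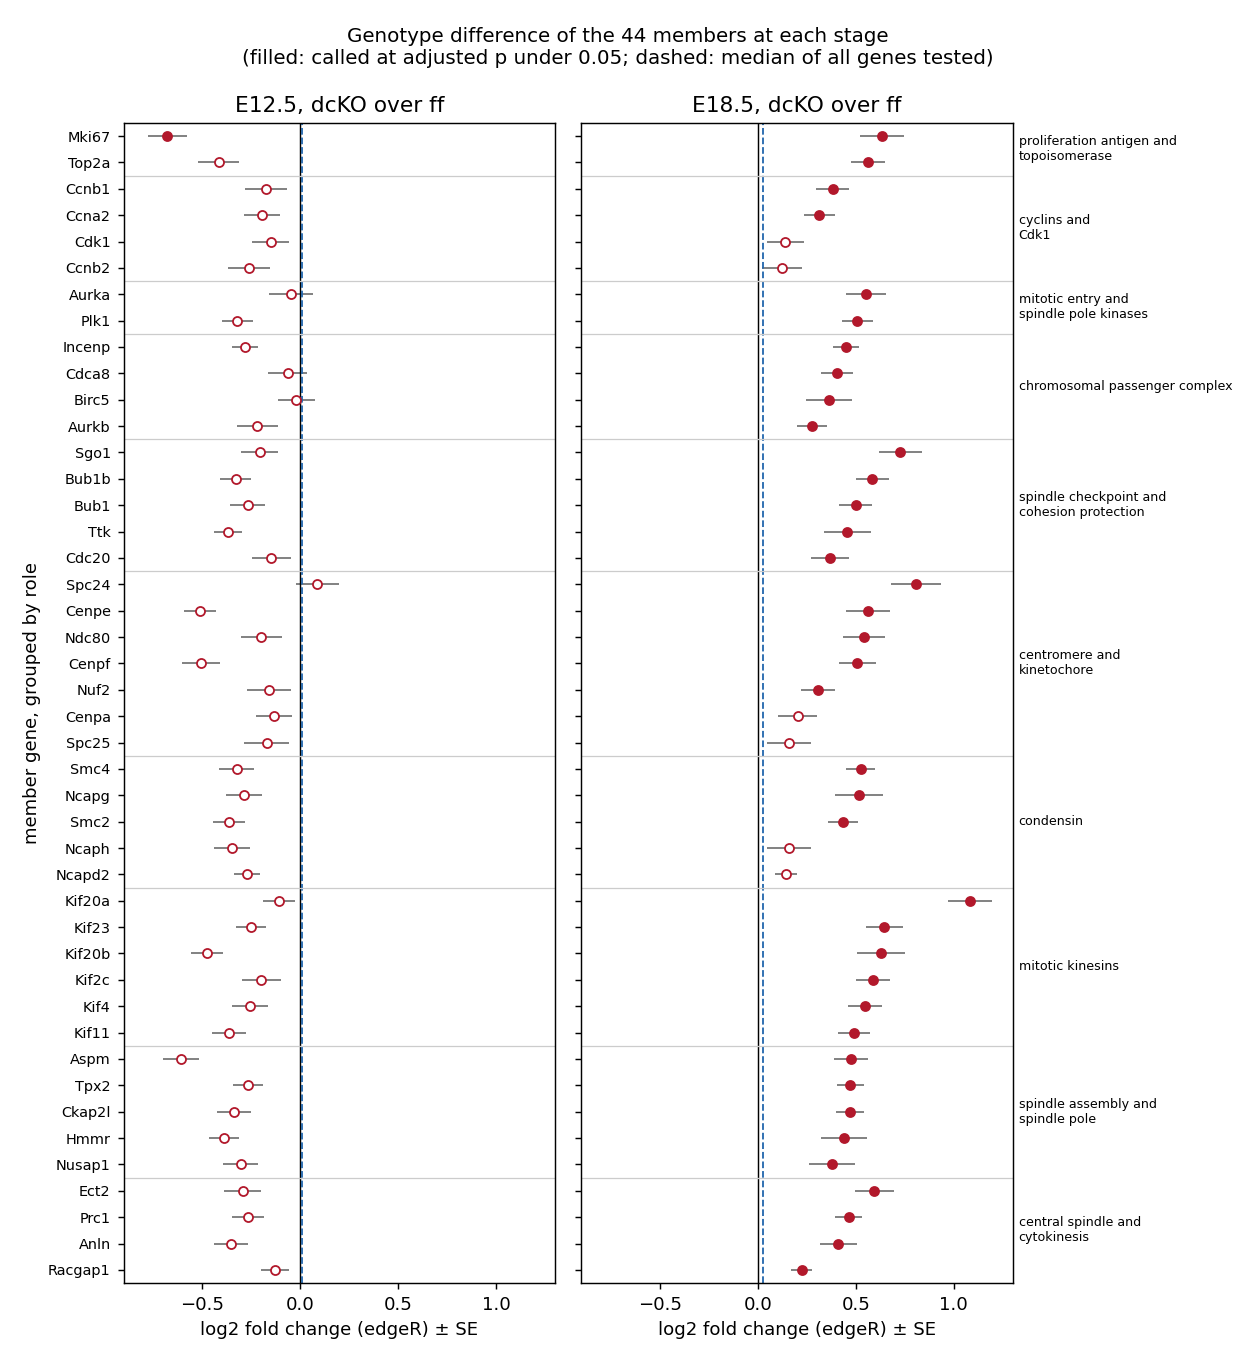
Log2 fold change of dcKO over ff (x axis) with its SE for each of the 44 members (y axis, grouped by role), at E12.5 on the left and E18.5 on the right; filled points passed an edgeR adjusted p under 0.05 and the dashed line is the median of all genes. At E12.5, 43 points lie left of 0 and only Mki67 is filled, and at E18.5 all 44 lie right of 0 and 38 are filled.

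Mki67 (ENSMUSG00000031004.9, chr7:135689784-135716361, minus strand, GENCODE M21 positions on GRCm38 here and below) encodes Ki-67, a coat protein of mitotic chromosomes and the usual marker of cycling cells. It was at 289, 229.9 and 226 CPM in E12.5 dcKO libraries, against 401, 403 and 386 CPM in E12.5 ff libraries. Every dcKO library was below every ff library, with replicate 2 the highest of the 3 (log2 fold change -0.68, SE 0.10, edgeR adjusted p = 0.0481). At E18.5 the order was opposite, with 111, 102, 109 and 99.7 CPM in E18.5 libraries labelled dcKO, against 54.6, 83.2, 64.4 and 68.3 CPM in E18.5 ff libraries. The groups again did not overlap (log2 fold change 0.63, SE 0.11, edgeR adjusted p = 0.00241), and the interaction was the largest among members as counted (interaction 1.27, SE 0.16, edgeR adjusted p = 0.000206). After the length and GC correction the interaction was 1.02, below 1.11 for Kif20a. The E12.5 call was lost in 5 of 6 fits that left out 1 library (all but that without dcKO replicate 2), and the log2 fold change lay between -0.80 and -0.61 in the 6. It was also lost with sex as a covariate, among male libraries alone and with upper quartile scaling (log2 fold changes -0.66, -0.66 and -0.63), and in 12 of 19 alternatives in all. Top2a (ENSMUSG00000020914.18, chr11:98992943-99024189, minus strand), the topoisomerase that untangles sister chromatids, was at 422, 409.9 and 381 CPM in E12.5 dcKO libraries, against 455, 593 and 569 CPM in E12.5 ff libraries. Its E12.5 difference did not pass the test (log2 fold change -0.41, SE 0.10, edgeR adjusted p = 0.0977), though the groups did not overlap. At E18.5 Top2a was at 148, 129.7, 124.7 and 119.7 CPM in E18.5 libraries labelled dcKO, against 74.1, 99.3, 88.1 and 89.4 CPM in E18.5 ff libraries, again without overlap, and rose (log2 fold change 0.56, SE 0.09, edgeR adjusted p = 0.000618).

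Of Cdk1 and the cyclins, Ccna2 and Ccnb1 rose at E18.5 and Cdk1 and Ccnb2 were not called at either stage. Cdk1 (ENSMUSG00000019942.14, chr10:69335146-69352938, minus strand), the kinase that starts mitosis, was at 114, 122 and 123 CPM in E12.5 dcKO libraries, against 116, 149 and 134 CPM in E12.5 ff libraries. The lowest ff library, replicate 4, lay within the dcKO range (log2 fold change -0.15, SE 0.09, edgeR adjusted p = 0.417). At E18.5 it was at 28.3, 34.8, 29.6 and 30.7 CPM in E18.5 libraries labelled dcKO, against 23.3, 28.7, 28.8 and 31.9 CPM in E18.5 ff libraries, with overlapping groups (log2 fold change 0.14, SE 0.09, edgeR adjusted p = 0.273). Ccnb2, a B-type cyclin, was at 16.5, 15.4, 14.3 and 15.9 CPM in E18.5 libraries labelled dcKO, against 11.8, 13.5, 15.3 and 16.2 CPM in E18.5 ff libraries. The groups overlapped and the difference was small (log2 fold change 0.12, SE 0.10, edgeR adjusted p = 0.379). At E12.5 Ccnb2 was at 58.7, 67.3 and 64.0 CPM in E12.5 dcKO libraries, against 64.3, 83.0 and 81.6 CPM in E12.5 ff libraries, with overlap (log2 fold change -0.26, SE 0.11, edgeR adjusted p = 0.232). Ccnb1 (ENSMUSG00000041431.17, chr13:100778650-100786570, minus strand), the main mitotic cyclin, was at 39.2, 47.0, 41.4 and 41.1 CPM in E18.5 libraries labelled dcKO, against 27.9, 34.7, 31.2 and 36.1 CPM in E18.5 ff libraries, and all libraries labelled dcKO were the higher ones (log2 fold change 0.38, SE 0.09, edgeR adjusted p = 0.00471). At E12.5 Ccnb1 was at 179.7, 191 and 181 CPM in E12.5 dcKO libraries, against 179, 242 and 199.7 CPM in E12.5 ff libraries, with overlap (log2 fold change -0.17, SE 0.11, edgeR adjusted p = 0.413). Ccna2, cyclin A, had a log2 fold change of 0.31 at E18.5 (edgeR adjusted p = 0.00935). The role's median was 0.23 at E18.5, the lowest of the 10 roles. Pseudogene copies of Ccnb1 and Ccnb2 are annotated, and how reads were shared with them was not stated.

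Both entry and spindle pole kinases rose at E18.5. Plk1, Polo-like kinase, which acts at spindle poles and kinetochores and in cytokinesis, was at 82.3, 80.9 and 87.6 CPM in E12.5 dcKO libraries, against 98.5, 115 and 99.2 CPM in E12.5 ff libraries. All 3 dcKO libraries were below the ff libraries (log2 fold change -0.32, SE 0.08, edgeR adjusted p = 0.0948). At E18.5 Plk1 was at 21.9, 23.1, 22.0 and 23.8 CPM in E18.5 libraries labelled dcKO, against 14.4, 15.9, 15.7 and 18.1 CPM in E18.5 ff libraries, without overlap (log2 fold change 0.51, SE 0.08, edgeR adjusted p = 0.000492). Its interaction was among the 10 with the lowest p (interaction 0.79, SE 0.11, edgeR adjusted p = 0.000387). Aurka, the kinase of centrosome maturation, differed by -0.05 at E12.5 (edgeR adjusted p = 0.865) and rose by 0.55 at E18.5 (edgeR adjusted p = 0.0015).

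All 4 members of the chromosomal passenger complex, which corrects faulty kinetochore attachments and later guides cytokinesis, rose at E18.5, with a median of 0.38. Incenp, its scaffold, was at 109.6, 109 and 111 CPM in E12.5 dcKO libraries, against 128, 143 and 129.8 CPM in E12.5 ff libraries, and at 41.5, 40.7, 39.2 and 40.6 CPM in E18.5 libraries labelled dcKO, against 26.9, 29.4, 29.4 and 32.5 CPM in E18.5 ff libraries. Neither pair of groups overlapped, and Incenp had small errors at both stages (log2 fold change -0.28, SE 0.07, edgeR adjusted p = 0.0861 at E12.5, and log2 fold change 0.45, SE 0.07, edgeR adjusted p = 0.000292 at E18.5). The interaction passed the test (interaction 0.69, SE 0.09, edgeR adjusted p = 0.000189). Aurkb, its kinase, was at 75.0, 77.6 and 78.0 CPM in E12.5 dcKO libraries, against 85.4, 104 and 76.1 CPM in E12.5 ff libraries, with overlap (log2 fold change -0.22, SE 0.11, edgeR adjusted p = 0.306). At E18.5 Aurkb was at 18.4, 19.9, 18.6 and 18.9 CPM in E18.5 libraries labelled dcKO, against 14.8, 15.8, 14.9 and 17.3 CPM in E18.5 ff libraries, without overlap (log2 fold change 0.28, SE 0.07, edgeR adjusted p = 0.0135), a call lost without ff replicate 7 or 17. Birc5, or survivin, was at 14.6, 18.02, 15.6 and 16.9 CPM in E18.5 libraries labelled dcKO, against 10.2, 12.01, 13.9 and 15 CPM in E18.5 ff libraries, and the highest ff library lay within the other group's range. It passed the test at E18.5 (log2 fold change 0.36, SE 0.12, edgeR adjusted p = 0.0312) but not in 4 of 8 fits with 1 library left out, those without dcKO replicate 3 or 13 or ff replicate 7 or 8. At E12.5 Birc5 was at 68.2, 74.3 and 75.8 CPM in E12.5 dcKO libraries, against 65.7, 83.0 and 72.3 CPM in E12.5 ff libraries, with overlap (log2 fold change -0.02, SE 0.10, edgeR adjusted p = 0.949), and its interaction was not called (interaction 0.35, SE 0.16, edgeR adjusted p = 0.151). Cdca8, or borealin, rose by 0.41 at E18.5 (edgeR adjusted p = 0.0029).

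The 5 genes of the spindle checkpoint and of cohesion protection all rose at E18.5, with a median of 0.50. Bub1b encodes BubR1, which inhibits the anaphase-promoting complex while the checkpoint is active. It was at 116, 110.5 and 109.6 CPM in E12.5 dcKO libraries, against 133, 156 and 132 CPM in E12.5 ff libraries, all dcKO libraries below ff (log2 fold change -0.33, SE 0.08, edgeR adjusted p = 0.0897). At E18.5 it was at 30.9, 30.6, 31.9 and 31.1 CPM in E18.5 libraries labelled dcKO, against 17.9, 21.02, 20.0 and 24.2 CPM in E18.5 ff libraries, and the groups were again apart (log2 fold change 0.58, SE 0.08, edgeR adjusted p = 0.000274). Bub1 (ENSMUSG00000027379.15, chr2:127801122-127831865, minus strand), the checkpoint kinase that also marks centromeres for shugoshin, was at 67.2, 72.2 and 68.3 CPM in E12.5 dcKO libraries, against 73.7, 91.3 and 85.4 CPM in E12.5 ff libraries, without overlap (log2 fold change -0.27, SE 0.09, edgeR adjusted p = 0.162). At E18.5 Bub1 was at 17.8, 18.1, 17.04 and 17.8 CPM in E18.5 libraries labelled dcKO, against 10.8, 13.1, 12.29 and 13.7 CPM in E18.5 ff libraries, and the libraries labelled dcKO lay within a narrow range above all ff libraries (log2 fold change 0.50, SE 0.09, edgeR adjusted p = 0.0009). Sgo1, shugoshin, which protects centromeric cohesion, was at 11.2, 13.2, 11.3 and 10.6 CPM in E18.5 libraries labelled dcKO, against 5.96, 7.82, 7.10 and 7.13 CPM in E18.5 ff libraries, without overlap (log2 fold change 0.73, SE 0.11, edgeR adjusted p = 0.000377). At E12.5 Sgo1 was at 34.5, 37.0 and 36.4 CPM in E12.5 dcKO libraries, against 36.5, 43.8 and 45.3 CPM in E12.5 ff libraries, with overlap (log2 fold change -0.21, SE 0.09, edgeR adjusted p = 0.274). Ttk, the Mps1 kinase, had -0.37 at E12.5 and 0.46 at E18.5 on the log2 scale (edgeR adjusted p = 0.0713 and 0.0112). Cdc20, which activates the anaphase-promoting complex, rose by 0.37 at E18.5 (edgeR adjusted p = 0.0114), although the group ranges overlapped.

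At centromeres and kinetochores 5 of 7 members rose at E18.5, and Cenpa and Spc25 were not called. Ndc80 of the microtubule-binding Ndc80 complex was at 36.7, 38.1 and 35.0 CPM in E12.5 dcKO libraries, against 35.9, 46.2 and 44.9 CPM in E12.5 ff libraries, with overlap (log2 fold change -0.20, SE 0.10, edgeR adjusted p = 0.34). At E18.5 Ndc80 was at 11.5, 10.7, 9.83 and 9.07 CPM in E18.5 libraries labelled dcKO, against 6.24, 7.64, 6.66 and 7.34 CPM in E18.5 ff libraries, and all libraries labelled dcKO were above ff (log2 fold change 0.54, SE 0.11, edgeR adjusted p = 0.00222). The other subunits of that complex differed in size of change: Spc24 rose by 0.81 and Nuf2 by 0.31 (edgeR adjusted p = 0.00052 and 0.0151). The remaining subunit, Spc25, was at 13.1, 15.4, 16.2 and 13.6 CPM in E18.5 libraries labelled dcKO, against 10.52, 14.1, 14.6 and 13.5 CPM in E18.5 ff libraries, with overlap (log2 fold change 0.16, SE 0.11, edgeR adjusted p = 0.29). At E12.5 Spc25 was at 62.5, 70.4 and 65.9 CPM in E12.5 dcKO libraries, against 61.9, 84.2 and 78.3 CPM in E12.5 ff libraries, also with overlap (log2 fold change -0.17, SE 0.11, edgeR adjusted p = 0.457). Cenpf (ENSMUSG00000026605.15, chr1:189640606-189688086, minus strand), a large protein of the outer kinetochore, was at 126, 103 and 101 CPM in E12.5 dcKO libraries, against 146, 163 and 159.6 CPM in E12.5 ff libraries, without overlap (log2 fold change -0.51, SE 0.10, edgeR adjusted p = 0.0688). At E18.5 Cenpf was at 39.0, 39.2, 40.8 and 34.0 CPM in E18.5 libraries labelled dcKO, against 23.2, 31.8, 26.3 and 26.0 CPM in E18.5 ff libraries, again without overlap (log2 fold change 0.51, SE 0.09, edgeR adjusted p = 0.00148). Cenpe, the kinetochore kinesin CENP-E, followed the same order, with -0.51 at E12.5 and 0.56 at E18.5 (edgeR adjusted p = 0.0523 and 0.00273). Cenpa, the histone H3 variant of centromeres, was at 23.2, 22.7, 18.4 and 19.3 CPM in E18.5 libraries labelled dcKO, against 15.5, 17.7, 18.2 and 20.5 CPM in E18.5 ff libraries, and the groups overlapped (log2 fold change 0.20, SE 0.10, edgeR adjusted p = 0.141). They also overlapped at E12.5, where Cenpa was at 83.0, 87.7 and 89.3 CPM in E12.5 dcKO libraries, against 82.1, 101 and 103 CPM in E12.5 ff libraries (log2 fold change -0.13, SE 0.09, edgeR adjusted p = 0.479).

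Condensin compacts mitotic chromosomes, and 3 of its 5 subunits rose at E18.5. Smc4, a core subunit, was at 172, 164 and 152 CPM in E12.5 dcKO libraries, against 181, 216 and 214 CPM in E12.5 ff libraries, without overlap (log2 fold change -0.32, SE 0.09, edgeR adjusted p = 0.114). At E18.5 Smc4 was at 71.5, 64.0, 63.9 and 60.5 CPM in E18.5 libraries labelled dcKO, against 41.0, 49.2, 40.8 and 48.5 CPM in E18.5 ff libraries, every library labelled dcKO above every ff library (log2 fold change 0.52, SE 0.08, edgeR adjusted p = 0.000285). Its partner Smc2 had -0.36 at E12.5 and 0.43 at E18.5 on the log2 scale (edgeR adjusted p = 0.0802 and 0.00102), and Ncapg rose by 0.52 at E18.5 (edgeR adjusted p = 0.00703). Ncapd2 and Ncaph, non-SMC subunits of condensin I, were not called at E18.5. Ncapd2 was at 124, 126, 132 and 134 CPM in E18.5 libraries labelled dcKO, against 106, 120.5, 119 and 122 CPM in E18.5 ff libraries, apart but by little (log2 fold change 0.15, SE 0.06, edgeR adjusted p = 0.0655). Ncaph was at 17.1, 21.8, 19.1 and 22.4 CPM in E18.5 libraries labelled dcKO, against 15.1, 19.7, 16.9 and 21.1 CPM in E18.5 ff libraries, and 2 libraries of each group lay within the other's range (log2 fold change 0.16, SE 0.11, edgeR adjusted p = 0.304). At E12.5 all dcKO libraries were below all ff libraries in CPM for all 5 subunits, beside 13.2% of all genes, and none passed the test. In TPM the Ncapd2 groups overlapped at E12.5, with dcKO up to 163.8 TPM and ff from 160.8 TPM. Ncapd2 was then at 300, 296 and 298 CPM in E12.5 dcKO libraries, against 344, 379 and 353 CPM in E12.5 ff libraries (log2 fold change -0.27, SE 0.07, edgeR adjusted p = 0.0958), and Ncaph at 69.8, 70.4 and 71.9 CPM in E12.5 dcKO libraries, against 79.5, 102 and 88.3 CPM in E12.5 ff libraries (log2 fold change -0.35, SE 0.09, edgeR adjusted p = 0.109).

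All 6 mitotic kinesins rose at E18.5, with a median of 0.61, the highest of the 10 roles. Kif20a, which acts at the central spindle in cytokinesis, was at 48.8, 38.0, 39.1 and 39.7 CPM in E18.5 libraries labelled dcKO, against 16.2, 18.4, 19.4 and 23.5 CPM in E18.5 ff libraries. The lowest library labelled dcKO was well above the highest ff library (log2 fold change 1.08, SE 0.11, edgeR adjusted p = 3.78e-05). At E12.5 Kif20a was at 120.3, 124 and 119.8 CPM in E12.5 dcKO libraries, against 117, 140.3 and 136 CPM in E12.5 ff libraries, with overlap (log2 fold change -0.11, SE 0.08, edgeR adjusted p = 0.505). Exons of Kif20a and of Cdc23, on the opposite strand, overlap over 1271 bases in GENCODE M21, and although the labels name a stranded library kit, the strand setting of the counting is not given in the sources used here. Cdc23 averaged 124 ± 0.777 CPM in libraries labelled dcKO and 139 ± 2.89 CPM in ff libraries at E18.5 (SD, n = 4 each), lower where Kif20a was higher (log2 fold change -0.16, SE 0.04, edgeR adjusted p = 0.0163). Kif23, or MKLP1, the motor of the centralspindlin complex, was at 59.7, 58.5 and 57.8 CPM in E12.5 dcKO libraries, against 64.6, 75.9 and 68.8 CPM in E12.5 ff libraries, without overlap (log2 fold change -0.25, SE 0.08, edgeR adjusted p = 0.137). At E18.5 Kif23 was at 22.7, 19.6, 20.6 and 19.5 CPM in E18.5 libraries labelled dcKO, against 11.5, 13.97, 12.03 and 14.7 CPM in E18.5 ff libraries, again apart (log2 fold change 0.65, SE 0.09, edgeR adjusted p = 0.000281). Kif2c, a microtubule depolymerase that corrects attachments, was at 21.8, 22.6, 21.2 and 21.6 CPM in E18.5 libraries labelled dcKO, against 12.03, 15.2, 14.8 and 15.9 CPM in E18.5 ff libraries, without overlap (log2 fold change 0.59, SE 0.09, edgeR adjusted p = 0.000363). Its E12.5 groups overlapped, at 73.6, 77.9 and 79.6 CPM in E12.5 dcKO libraries, against 83.7, 102 and 77.7 CPM in E12.5 ff libraries (log2 fold change -0.20, SE 0.10, edgeR adjusted p = 0.32).

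Kif11 (ENSMUSG00000012443.5, chr19:37376403-37421859, plus strand), the kinesin-5 that drives spindle poles apart, was at 149.8, 147 and 142 CPM in E12.5 dcKO libraries, against 165, 202 and 199.5 CPM in E12.5 ff libraries, all dcKO libraries the lower ones (log2 fold change -0.36, SE 0.09, edgeR adjusted p = 0.0891). At E18.5 Kif11 was at 54.6, 50.1, 50.8 and 47.3 CPM in E18.5 libraries labelled dcKO, against 30.9, 40.8, 34.3 and 37.5 CPM in E18.5 ff libraries, all libraries labelled dcKO the higher ones (log2 fold change 0.49, SE 0.08, edgeR adjusted p = 0.000805). Kif20b, a kinesin of late cytokinesis needed for normal cortical growth in mice, was at 31.9, 28.1 and 28.9 CPM in E12.5 dcKO libraries, against 38.6, 43.4 and 41.5 CPM in E12.5 ff libraries, without overlap (log2 fold change -0.47, SE 0.08, edgeR adjusted p = 0.0625). At E18.5 Kif20b was at 17.8, 12.2, 12.5 and 13.3 CPM in E18.5 libraries labelled dcKO, against 7.96, 10.1, 8.28 and 8.84 CPM in E18.5 ff libraries, and the shallow dcKO replicate 2 was the highest (log2 fold change 0.63, SE 0.12, edgeR adjusted p = 0.0022). Its interaction passed the test (interaction 1.05, SE 0.15, edgeR adjusted p = 0.000482). Kif4 rose by 0.55 at E18.5 (edgeR adjusted p = 0.000501). It overlaps Pdzd11 on the opposite strand and has an annotated pseudogene copy.

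The 5 spindle assembly and spindle pole genes rose at E18.5 by similar amounts, from 0.38 to 0.48 on the log2 scale. Aspm (ENSMUSG00000033952.15, chr1:139454772-139494091, plus strand), a spindle pole protein of neural progenitors whose loss causes microcephaly in humans, was at 71.2, 60.9 and 61.5 CPM in E12.5 dcKO libraries, against 89.5, 101 and 106 CPM in E12.5 ff libraries. All dcKO libraries were below all ff libraries, and the difference just missed the threshold (log2 fold change -0.61, SE 0.09, edgeR adjusted p = 0.0505). At E18.5 Aspm was at 26.4, 25.6, 25.2 and 24.0 CPM in E18.5 libraries labelled dcKO, against 15.3, 20.3, 17.4 and 19.4 CPM in E18.5 ff libraries, in the opposite order and without overlap (log2 fold change 0.48, SE 0.09, edgeR adjusted p = 0.00145). Its interaction had the lowest p of all members (interaction 1.04, SE 0.13, edgeR adjusted p = 0.000164). Tpx2, which activates Aurora A on the spindle, was at 183, 176 and 176 CPM in E12.5 dcKO libraries, against 196, 234 and 213 CPM in E12.5 ff libraries, without overlap (log2 fold change -0.27, SE 0.08, edgeR adjusted p = 0.125). At E18.5 Tpx2 was at 53.1, 56.6, 53.3 and 55.6 CPM in E18.5 libraries labelled dcKO, against 34.2, 42.8, 40.1 and 40.8 CPM in E18.5 ff libraries, again apart (log2 fold change 0.47, SE 0.07, edgeR adjusted p = 0.00033). Ckap2l, a spindle protein of neural progenitors also called radmis, was at 76.5, 67.8 and 69.7 CPM in E12.5 dcKO libraries, against 82.5, 98.6 and 89.3 CPM in E12.5 ff libraries, without overlap (log2 fold change -0.34, SE 0.09, edgeR adjusted p = 0.0999). At E18.5 Ckap2l was at 24.5, 26.9, 26.5 and 26.3 CPM in E18.5 libraries labelled dcKO, against 16.9, 19.0, 19.3 and 20.4 CPM in E18.5 ff libraries, without overlap (log2 fold change 0.47, SE 0.07, edgeR adjusted p = 0.000377). Hmmr and Nusap1, microtubule-binding proteins of the spindle, rose by 0.44 and 0.38 at E18.5 (edgeR adjusted p = 0.0116 and 0.0273).

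All 4 genes of the central spindle and cytokinesis rose at E18.5. Prc1, which bundles antiparallel microtubules of the central spindle, was at 161, 168 and 167 CPM in E12.5 dcKO libraries, against 180.4, 219 and 198 CPM in E12.5 ff libraries, without overlap (log2 fold change -0.27, SE 0.08, edgeR adjusted p = 0.136). At E18.5 Prc1 was at 59.0, 54.8, 52.7 and 53.9 CPM in E18.5 libraries labelled dcKO, against 34.9, 40.1, 40.7 and 43.5 CPM in E18.5 ff libraries, and the groups were apart (log2 fold change 0.46, SE 0.07, edgeR adjusted p = 0.000381). Anln, anillin, the scaffold of the contractile ring, was at 46.3, 44.3 and 43.5 CPM in E12.5 dcKO libraries, against 50.7, 62.3 and 58.5 CPM in E12.5 ff libraries, without overlap (log2 fold change -0.35, SE 0.09, edgeR adjusted p = 0.0977). At E18.5 Anln was at 16.3, 15.3, 15.7 and 17.6 CPM in E18.5 libraries labelled dcKO, against 10.99, 13.3, 11.1 and 13.4 CPM in E18.5 ff libraries, and the libraries labelled dcKO were all higher (log2 fold change 0.41, SE 0.09, edgeR adjusted p = 0.00538). Ect2, the exchange factor for RhoA at the cleavage site, rose by 0.59 (edgeR adjusted p = 0.000721), and Racgap1, the other centralspindlin subunit, by 0.22 (edgeR adjusted p = 0.00705). Prc1 overlaps Rccd1 on the opposite strand over 911 bases. In all, 12 members have an exon that overlaps another gene, 8 of them a protein-coding gene on the opposite strand, and their counts may include reads of that gene.

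**Figure D3:**
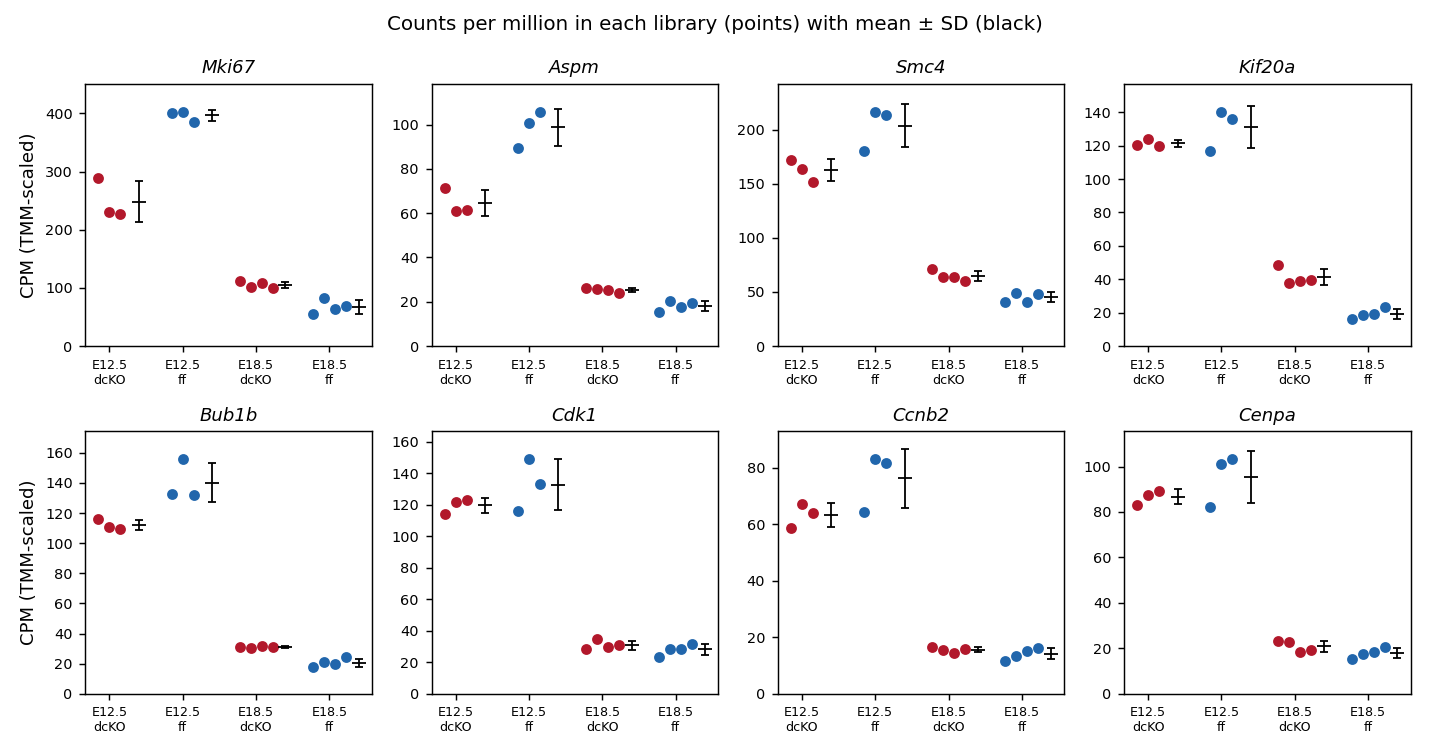
TMM-scaled CPM (y axes, linear from 0) in each library of the 4 groups (x axes) for 8 members, with group mean ± SD in black; dcKO is red and ff blue. Mki67, Aspm, Smc4 and Bub1b are lower in E12.5 dcKO and higher in E18.5 libraries labelled dcKO without overlap, Kif20a is apart at E18.5 alone, and Cdk1, Ccnb2 and Cenpa overlap at both stages.

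At E12.5 the size of the difference followed transcript length across members. The log2 fold change and the longest GENCODE M21 transcript had r = -0.74 and rho = -0.57 over the 44 genes, which share the same 6 libraries, so this is a description with no test. The 7 members over 5 kb, Mki67, Top2a, Kif20b, Cenpe, Cenpf, Smc2 and Aspm, had a median of -0.51, and the 37 others -0.26. Over all genes, the deviation from the stage mean correlated with length within single libraries, with rho = -0.02, -0.39 and -0.45 in dcKO (replicates 2, 6 and 10) and 0.42, 0.03 and 0.14 in ff (replicates 4, 7 and 9). A spline correction for length and GC content took the correlation over members to r = -0.14 and rho = 0.04, and the medians to -0.26 for the 7 long and -0.21 for the 37 other members. All 44 corrected values were negative, with a median of -0.22, and 3 members were called lower. Among male libraries with the same correction, chosen after seeing the data, the median was -0.13 and none was called. With dcKO replicate 2 as the lone dcKO library, also chosen after seeing the data and assumed to vary like the ff group, the median was -0.26. At E18.5 the log2 fold change and length had r = 0.19 and rho = 0.24, and the median was 0.47 after the correction.

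**Figure D4:**
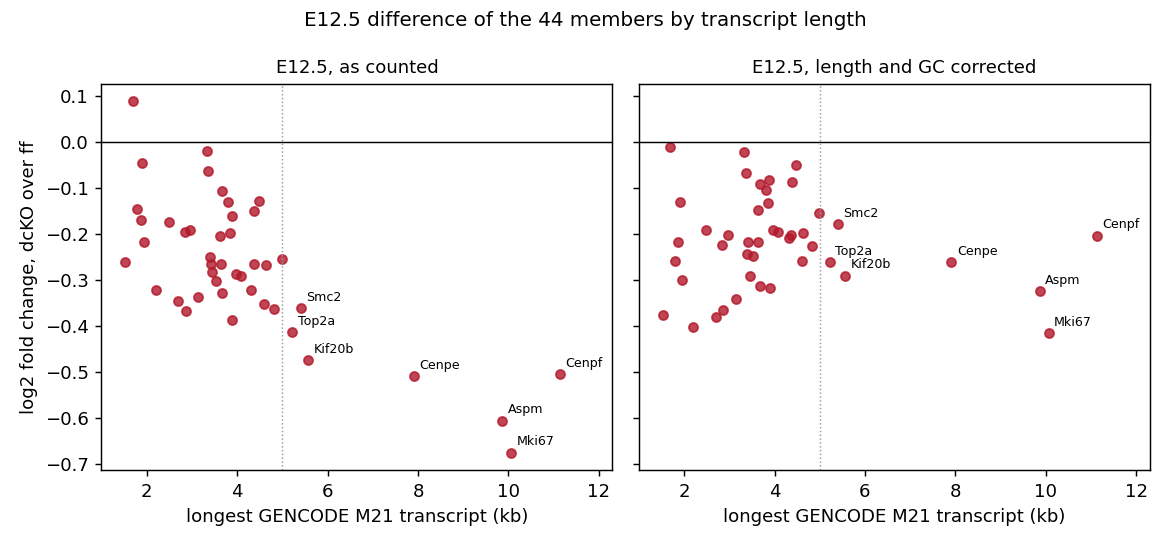
E12.5 log2 fold change of dcKO over ff (y axis) by the length in kb of the longest transcript (x axis) for the 44 members, as counted on the left and after the length and GC correction on the right; named points are the 7 members over 5 kb, right of the dotted line. The 7 have a median of -0.51 as counted, against -0.26 for the 37 others, and of -0.26 against -0.21 after correction.

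All 44 members were lower at E18.5 than at E12.5 in both genotypes. In dcKO the median log2 difference between stages was -1.72, and in ff it was -2.43, beside 0.01 and -0.0018 over all genes. All 44 were called lower in each, beside 31.3% of all genes in dcKO and 29.9% in ff. As a share of the E12.5 level in TPM, E18.5 levels were 22.4% (Birc5) to 56.6% (Kif20b) in dcKO and 14.9% (Bub1) to 36.2% (Ncapd2) in ff. Mki67 was at 48.6% of its E12.5 level in dcKO and 17.3% in ff, and Cdk1 at 30.3% in dcKO and 21.6% in ff. Telencephalon at E12.5 and cortex at E18.5 are different dissections, so age and tissue cannot be told apart here.

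Members with more RNA in ff changed less at E18.5. Log2 fold change and log2 mean TPM in ff had r = -0.52 and rho = -0.58 over the 44 members at E18.5, and r = 0.51 and rho = 0.54 at E12.5. The ff level enters both quantities, so these are descriptions with no test. Per length, Cdk1 (233 TPM in dcKO and 272 TPM in ff) and Top2a (208 TPM in dcKO and 266 TPM in ff) were the highest members at E12.5. Aspm was the lowest in every group, at 11.3 TPM in dcKO and 17.5 TPM in ff at E12.5, and at 5.07 TPM in libraries labelled dcKO and 3.35 TPM in ff libraries at E18.5. The E12.5 and E18.5 log2 fold changes of the members, from separate libraries, had r = -0.08 and rho = -0.22.

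Other genes of the pathway were read from lists chosen by function, with earlier results of these data known. For their counts, the shares of all genes are 15.6% called higher and 16.6% called lower at E18.5. At E12.5 edgeR called 0.151% of all genes lower. Of 74 other mitotic genes tested, 39 rose and 1, Ncaph2 of condensin II, fell at E18.5 (log2 fold change -0.21), with a median log2 fold change of 0.35. Among those with the lowest p were Cit, citron kinase (31.4 ± 2.87 CPM in libraries labelled dcKO and 18.6 ± 1.37 CPM in ff libraries, SD, n = 4 each), and Espl1, separase (17.4 ± 1.28 CPM and 10.9 ± 1.32 CPM in the same order). At E12.5 none of the 74 was called by edgeR, 68 were negative and the median was -0.20. Of 40 DNA replication genes, 22 rose and 1, Chaf1b, fell by 0.25 at E18.5 (median 0.27). Dtl and Hells were among those that rose (log2 fold changes 0.88 and 0.73, edgeR adjusted p = 1.18e-05 and 9.13e-05). None of the 40 was called at E12.5, where the median was -0.20.

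Of 23 regulators of these promoters, 7 rose at E18.5, beside 15.6% of all genes called higher, with a median of 0.09. The NF-Y subunit Nfyc alone fell, by 0.21, beside 16.6% of all genes called lower. Foxm1, which drives late cell cycle transcription, rose (42.7 ± 2.24 CPM in libraries labelled dcKO and 29.2 ± 3.45 CPM in ff libraries, SD, n = 4 each; log2 fold change 0.55, SE 0.08, edgeR adjusted p = 0.000355). Mybl2, or B-Myb, rose by 0.41 (SE 0.12, edgeR adjusted p = 0.0217), and Mybl1 by 0.75 (SE 0.12, edgeR adjusted p = 0.000442). Lin54, the MuvB subunit that binds the CHR element, was not called (log2 fold change 0.15, SE 0.08, edgeR adjusted p = 0.187). Of 6 cell cycle inhibitors tested, 1 fell at E18.5, Cdkn2d (log2 fold change -0.36, SE 0.08, edgeR adjusted p = 0.00437), and none rose. That count of 1 is near the 16.6% of all genes called lower, so it is no result about inhibitors. Cdkn1a, which encodes p21, averaged 21.2 ± 1.495 CPM in dcKO and 18.9 ± 1.65 CPM in ff at E12.5 (SD, n = 3 each; log2 fold change 0.15, SE 0.10, edgeR adjusted p = 0.448). At E18.5 it averaged 25.3 ± 1.44 CPM in libraries labelled dcKO and 22.6 ± 0.582 CPM in ff libraries (SD, n = 4 each; log2 fold change 0.15, SE 0.06, edgeR adjusted p = 0.0815).

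Markers of several cell types moved with the members at E18.5, where 15.6% of all genes were called higher. The endothelial, meningeal fibroblast and erythroid lists below, with 1 gene higher each, are near that share. The oligodendrocyte precursor list was mixed in direction. Of 18 apical progenitor markers 11 rose and Tnc fell (median 0.44), with Pax6 at 47.6 ± 1.44 CPM in libraries labelled dcKO and 24.7 ± 2.31 CPM in ff libraries (SD, n = 4 each). Of 10 intermediate progenitor markers 5 rose and Neurod1 fell. Of 16 neuron markers 14 fell, beside 16.6% of all genes called lower, and Bcl11b rose, and their TPM summed to 5803 to 6493 in libraries labelled dcKO and 8368 to 8654 in ff libraries. All 13 ventral telencephalon markers had positive log2 fold changes and 11 rose. The list includes Dlx5, Dlx6, Lhx6 and Lhx8 and does not separate dividing progenitors from neurons. Its sums were 598 to 823 TPM in libraries labelled dcKO and 310 to 380 TPM in ff libraries, and no marker was under a mean of 1 TPM in any group. The 823 TPM was in the shallow dcKO replicate 2, and the other libraries labelled dcKO were at 598 to 601 TPM. Microglia markers summed to 139 to 166 TPM in libraries labelled dcKO and 91.6 to 114 TPM in ff libraries (5 of 8 rose), and endothelial markers to 182 to 247 TPM and 137 to 220 TPM in the same order (Flt1 of 8 rose). Oligodendrocyte precursor markers summed to 118 to 129 TPM and 114 to 126 TPM (2 of 7 rose and 2 fell), and meningeal fibroblast markers to 276 to 400.3 TPM and 176 to 337 TPM (Foxc1 of 7 rose). Erythroid markers summed to 595 to 2761 TPM in libraries labelled dcKO and 3648 to 6195 TPM in ff libraries (Klf1 rose among 7 tested), and choroid plexus markers to 11.99 to 3363 TPM and 1476 to 2576 TPM (none of 8 called). The library at 11.99 TPM was dcKO replicate 12, whose members summed to 1135 TPM, the lowest of its group. The part of these cell types in the members' difference was not tested.

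At E12.5 ventral telencephalon markers summed to 516 to 617 TPM in dcKO and 514 to 800.2 TPM in ff, with no call among 13. Apical progenitor markers summed to 3415 to 3547 TPM in dcKO and 3360 to 3626 TPM in ff, and these ranges overlapped. None of the 18 was called, at a stage where edgeR called 0.151% of all genes lower. Of the 18, 15 had a negative log2 fold change (median -0.16), and in 7 all dcKO libraries lay below all ff libraries, beside 13.2% of all genes. Intermediate progenitor markers summed to 628 to 641 TPM in dcKO and 704 to 829 TPM in ff, where Eomes fell (87.0 ± 4.22 CPM in dcKO and 146 ± 7.45 CPM in ff, SD, n = 3 each; log2 fold change -0.74, SE 0.07, edgeR adjusted p = 0.0141). Markers of the dorsal telencephalon were lower to unlike extents. At E12.5 all dcKO libraries lay below all ff libraries in 5 of 7 such markers, beside 13.2% of all genes. Pax6 hardly differed (log2 fold change -0.03, edgeR adjusted p = 0.862). All 7 had negative log2 fold changes at E12.5 (median -0.57), and 3 fell (Emx1, Tbr1 and Fezf2). The TPM of the 7 summed to 638 to 708 in dcKO and 837 to 913 in ff, without overlap. At E18.5, 4 of the 7 fell (Emx1, Tbr1, Fezf2 and Neurod6) and 2 rose (Pax6 and Emx2), with sums of 543 to 613 TPM in libraries labelled dcKO and 778 to 843 TPM in ff libraries. The part of these cell types in the lower level of the members at E12.5 was not tested.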

How the data were processed

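Libraries were made from RNA with a stranded mRNA kit, per the labels' protocols. Trim Galore, STAR, RSEM and DESeq2 are named in the submitters' processing notes, without versions or settings. The genome build, annotation and strand setting are not given in the sources used here. The deposited tables hold RSEM expected counts and TPM values per gene and library. The authors' deposited comparison tables hold log2 fold changes, their standard errors and p-values, and were used for their calls alone. Table columns were assigned to groups by genotype and stage, and the replicate is the library number shared by column name and sample title.

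The expected counts, after rounding, were tested in R 4.3.3 with edgeR 4.0.16 (filterByExpr, TMM scaling, robust quasi-likelihood F test, Benjamini-Hochberg adjusted p under 0.05 over all genes tested). Each stage had its own fit, and interaction and stage differences came from 1 fit of all 14 libraries. CPM values are TMM-scaled (prior count 2 on the log scale). Alternatives were limma 3.58.1 (voom), DESeq2 1.42.0, other scalings and filters, sex as a covariate, male libraries alone, a spline correction (5 degrees of freedom) for transcript length and GC content from GENCODE M21, an exact permutation test on log2(TPM + 1), and leaving out libraries. The fits were tested on simulated data with 200 changed genes.

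The members and lists were chosen with earlier results of these data known. Values of every library are given for 12 members spread over the roles, for members called at E12.5, for the 10 with the lowest p at E18.5 and in the interaction, and for those not called at E18.5 or in the interaction. From other lists, up to 4 genes per comparison with the lowest p are named. Mybl2, Lin54, Cdkn1a and Cdc23 are named for their role or position, and the genes behind counts of 1 after their values were seen. 1 dorsal telencephalon marker is not reported here.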

Additional observations from a re-analysis of the deposited data

Results flagged for a closer look

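Kif20a stood at 48.8 CPM in E18.5 dcKO replicate 2, the shallow library, apart from 38.0 to 39.7 CPM in the other 3 libraries labelled dcKO. Of 60 groups of values tested in this way over 29 named members, 1 held a library so far from the rest, and chance gives about 1 in 20. At that rate chance alone gives more than 1 among 60, although the groups share libraries.

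The genotype difference was higher at E18.5 than at E12.5 by the interaction test for 38 members, and the median interaction of all 44 was 0.72 on the log2 scale. The 10 with the lowest p were Aspm (1.04), Kif20a (1.14), Incenp (0.69), Mki67 (1.27), Bub1b (0.87), Kif23 (0.85), Plk1 (0.79), Ckap2l (0.77), Kif20b (1.05) and Smc4 (0.80). These are values without the length and GC correction. With it, Aspm was at 0.79, Kif20b at 0.88, Mki67 at 1.02 and Kif20a at 1.11.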

How the results depend on the processing

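At E12.5 the number of members called, 1 as reported, depended on the processing. It was 2 with DESeq2 size factors, 7 with no filter, 21 with the DESeq2 Wald test, 3 with limma-voom, 3 with the length and GC correction and 16 in 1 fit of all 14 libraries. It was 0 with upper quartile scaling, a mean of at least 1 CPM, sex as a covariate, male libraries alone, or without both shallow libraries. Among alternatives chosen after seeing the data it was 0 for male libraries with the length and GC correction and 0 without E12.5 dcKO replicates 6 and 10. Leaving out 1 library gave 0 to 5 calls. On log2(TPM + 1), 31 members reached the smallest two-sided exact permutation p that 3 against 3 libraries allow, 0.1. That p is above 0.05, so the 31 are not calls, and the test was not run over all genes. At E12.5, male libraries alone is the same fit as leaving out ff replicate 7. Leaving out both shallow libraries is there the same fit as leaving out ff replicate 9. At E18.5 it is the same fit as leaving out dcKO replicate 2. These pairs are not separate checks, also where alternatives are counted above.

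The count over all genes at E12.5, 34 as reported, was 56 with DESeq2 size factors, 244 with no filter, 9 with at least 1 CPM, 1209 with DESeq2, 124 with limma-voom, 3 with sex, 6 in males, 106 with the length and GC correction, 71 without shallow libraries, 1079 in 1 fit, 14 in corrected males and 0 without dcKO replicates 6 and 10. It was 0 to 571 with 1 library left out, 0 without dcKO replicate 6 or 10 and 571 without dcKO replicate 2. In the interaction, 3195 genes were called, and 1690 to 3307 with 1 library left out.

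The median over members was -0.13 at E12.5 in corrected males and 0.61 at E18.5 with sex as a covariate. Birc5 at E12.5, -0.02 as reported, was 0.0275 with upper quartile scaling, 0.0857 with sex as a covariate, 0.0866 in males and 0.0945 in corrected males, and between -0.10 and 0.0866 with 1 library left out. Cdk1 at E12.5 was 0.033 in corrected males. The cause of these changes was not tested. At E18.5, 34 to 40 members were called under every alternative run, and 30 to 39 in the interaction, all positive. The members' median stayed negative at E12.5 and positive at E18.5 throughout.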
